A study of Schizosaccharomyces pombe with 21 samples.

Results

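Fission yeast (Schizosaccharomyces pombe) cells moved into medium without phosphate for 4 h in the presence of cycloheximide were compared with log-phase cells in phosphate-rich medium, gene by gene, with 6 of the 21 libraries of the series. The libraries were chosen by their labels alone and all genes of the count table entered the comparison. The 3 libraries of the drug-treated group came from strain AGP72, genotype h-, held for 4 h in ePMGT(-PO4) medium, which lacks phosphate, with cycloheximide at 100 µg/ml. The 3 libraries at 0 h came from the same strain in log phase in YES, a rich medium, without drug. For context the same drug-treated libraries were also set against 3 libraries of cells starved for 4 h without drug, and against 3 libraries each of cells starved for 2 h and for 8 h with the drug. Every group shares the strain and genotype, and the labels call the 3 libraries of each group biological replicates. Phosphate starvation, the change of medium and the drug all differ between the drug-treated cells and the cells at 0 h, so their parts in any difference cannot be told apart, and no library of replete cells with the drug was used here.

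Cycloheximide binds the ribosome and stops translation elongation, so messages made in its presence are not translated into new regulators. Fission yeast without phosphate normally raises a small set of phosphate acquisition genes under the transcription factor Pho7, and several of those genes are held down in rich medium by transcription of a long noncoding RNA just upstream. Prolonged phosphate starvation leads these cells into quiescence, in which ribosome production is shut down, and Maf1, a repressor of RNA polymerase III, is the factor named in the title of the series.

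The libraries held 22611265 to 29290388 counts at 4 h with cycloheximide and 23006377 to 31132468 counts at 0 h, in poly(A)-selected RNA. Of the 6988 genes counted by the authors, 6392 were tested, and a gene is called here where edgeR's quasi-likelihood test gave a Benjamini-Hochberg adjusted p below 0.05 with at least a 2-fold difference. Levels are TMM-scaled CPM (each count divided by the scaled library size, times a fixed factor), not corrected for gene length. Fold changes are log2 values, and the ± values are standard errors derived from the test. Each is the absolute log2 fold change divided by the square root of the quasi-likelihood F statistic. By this rule 947 genes, 14.8% of those tested, rose in drug-treated starved cells relative to 0 h, and 948 genes, also 14.8%, fell. The fitted changes of all tested genes had a median of -0.07. Libraries of the groups did not overlap for 87.3% of the tested genes, so that a lack of overlap is the rule and not a mark of the genes described here. Against cells starved for 4 h without drug, 1272 genes (19.9%) were called higher and 1339 (20.9%) lower with the drug. The authors' deposited table for 4 h with cycloheximide against 0 h, made with DESeq2, held 1042 genes higher and 862 lower at the same thresholds. In bulk RNA, fewer cells that express a gene and less of its RNA per cell cannot be told apart.

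The labelled mating type was set against its pheromone genes. An h- strain carries the M mating type, and of the M-cell genes mfm2, which encodes M-factor, was present at 25.5, 17.7 and 26.8 CPM with the drug against 65.8, 58.5 and 51.8 CPM at 0 h, whereas mfm1, mfm3 and the pheromone receptor gene mam2 stayed under 7 CPM in all 6 libraries. Genes usually linked to P cells were also detected. The protease gene sxa1 had 733, 726 and 669 CPM with the drug and 447, 481 and 465 CPM at 0 h, a change of 0.61 ± 0.04 that was not called. The P-cell genes map1 and map2 were called higher, at 1.14 ± 0.07 and 1.24 ± 0.13. In contrast map3 changed by -0.92 ± 0.09 and was not called, with 14.8, 13.2 and 15.9 CPM at 0 h. The mating-type regulator mat1-Mc did not pass the filter on low counts.

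**Figure D1:**
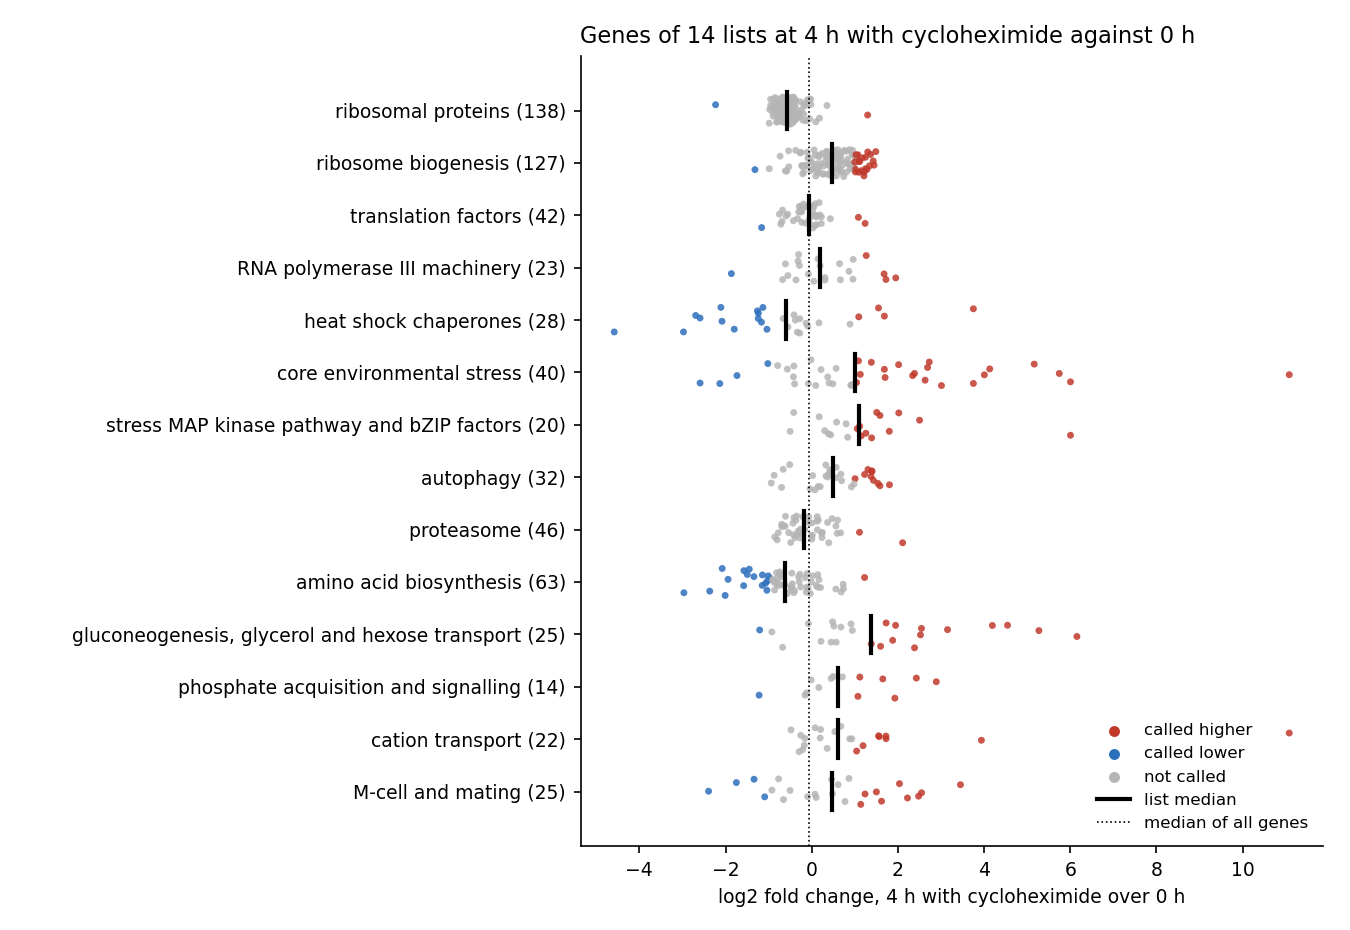
Log2 fold change of 4 h with cycloheximide over 0 h (horizontal axis) for the tested members of 14 gene lists, 1 point per gene and the number of members in brackets; red points were called higher, blue points lower and grey points not called, black bars are list medians and the dotted line is the median of all tested genes at -0.07. The list of gluconeogenesis, glycerol and hexose transport genes has the rightmost median, at 1.38. The medians of ribosomal protein, chaperone and amino acid biosynthesis genes lie between -0.57 and -0.62.

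The plot of fold changes by list sets the gene groups side by side. Many lists leaned to 1 side, often by less than 2-fold. With an adjusted p below 0.05 (edgeR), 127 of 130 ribosomal protein genes and 48 of 58 amino acid biosynthesis genes changed downward. Only 18 of 115 such ribosome biogenesis genes and 5 of 29 such autophagy genes did so. Other lists were more divided, as 24 of 40 such proteasome genes and 8 of 23 such M-cell and mating genes changed downward. The gene lists were drawn up with earlier results of these data known and share some genes, so their counts are descriptions of these libraries. Counts relative to 0 h are to be read against the 14.8% of all tested genes called in each direction. Those relative to 4 h without drug are to be read against 19.9% higher and 20.9% lower.

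The 12 coding genes that rose most and the 12 that fell most, among those reaching 100 CPM, belonged to several functions. The rsv2 gene, for a transcription factor of spore formation, had 792, 829 and 564 CPM with the drug against 40.3, 42.0 and 42.5 CPM at 0 h, a change of 4.13 ± 0.13. The lsd90 gene had 390.1, 530.5 and 306 CPM against 22.3, 22.3 and 20.5 CPM at 0 h, and 2444, 2254 and 1831 CPM at 4 h without drug. It thus stood between 0 h and undrugged starvation, whereas rsv2 exceeded its level of 157, 158 and 159 CPM in undrugged starved cells. The O-methyltransferase gene cmt2 rose by 4.59 ± 0.19 and the adducin gene mug14 by 5.16 ± 0.10. At the other end, wis2, a cyclophilin gene, had 26.7, 35.3 and 26.1 CPM with the drug against 783, 826 and 769 CPM at 0 h, a change of -4.75 ± 0.10 (edgeR adjusted p = 8.70e-21). The glycolytic genes eno101 and gpm1 changed by -4.66 ± 0.11 and -3.45 ± 0.08 and the alcohol dehydrogenase gene adh1 by -4.13 ± 0.07. All of these genes separated the 3 drug-treated libraries from the 3 at 0 h, which the rule for naming them required.

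Transcripts of ribosomal proteins mostly stayed within 2-fold of their replete level in drug-treated starved cells and were far more abundant than in cells starved without the drug. Of 138 ribosomal protein genes tested, 1 rose and 1 fell relative to 0 h, and their median change was -0.57. The number that fell was 3 without the first library at 0 h and 2 without the second drug-treated library. The shift was below 2-fold and mostly in 1 direction: 130 of the 138 had an adjusted p below 0.05 (edgeR), and 127 of these changed downward. Such an adjusted p was common, as 5534 of all 6392 tested genes had one, in either direction. Against 4 h without drug, 135 of the 138 were called higher with the drug, with a median of 2.05. Together these genes made up 156954 to 169479 CPM in drug-treated cells, 40927 to 45284 CPM in cells starved for 4 h without drug and 226259 to 241521 CPM at 0 h. These sums do not overlap between any of the 3 groups. The gene that rose was rpl1603, which encodes a copy of large-subunit protein L13/L16. It had 521, 509 and 529.7 CPM in the drug-treated libraries against 211, 214 and 209.7 CPM at 0 h, a change of 1.30 ± 0.04 (edgeR adjusted p = 1.20e-17), and 8.81, 10.99 and 9.88 CPM at 4 h without drug. All 3 drug-treated libraries thus lay above every other library of the 3 groups. The gene that fell was rps1401, which encodes a copy of small-subunit protein S14, with 100.3, 104 and 83.7 CPM against 426, 476 and 450.3 CPM at 0 h and a change of -2.23 ± 0.09. For rpl42, the gene of protein L42 and the site of a known cycloheximide resistance mutation in yeasts, the drug-treated libraries held 1380.5, 1440.0 and 1404 CPM against 2044, 2153 and 2199.9 CPM at 0 h. Its change of -0.60 ± 0.06 was below 2-fold and so was not called, while all 3 drug-treated libraries were below all 3 at 0 h. Ribosomal protein genes exist largely as near-identical pairs, and the counting used by the authors could divide reads between copies, so the values of single copies are uncertain.

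Ribosome biogenesis genes encode the factors that process rRNA and assemble subunits. They were seldom called lower relative to 0 h, while the share called higher was near that of all genes. Of 127 tested, 22 (17.3%) rose and 1 (0.787%) fell relative to 0 h, against 14.8% of all tested genes in each direction. With 1 library left out 17 to 22 rose. Their median change was 0.48. Against 4 h without drug 120 of 127 were higher, with a median of 2.08. Their summed level was 43182 to 43835 CPM in drug-treated cells, 9568 to 9818 CPM at 4 h without drug and 27999 to 29386 CPM at 0 h. The sums with the drug exceeded those at 0 h in every library. Among those that rose, rlp7, a factor of large-subunit assembly, had 1021, 1032 and 1027 CPM with the drug against 359, 373 and 366 CPM at 0 h, a change of 1.49 ± 0.04. The GTPase gene nog2, needed for export of the large subunit, had 1005, 1036 and 990.5 CPM against 359.7, 384 and 384 CPM at 0 h, a change of 1.43 ± 0.05. For both genes the groups did not overlap, and the same held for fyv7, an rRNA-processing factor with a change of 1.45 ± 0.04. The 1 member that fell, cms1, changed by -1.32 ± 0.07, and 2 members fell without the third library at 0 h or without the third drug-treated library.

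**Figure D2:**
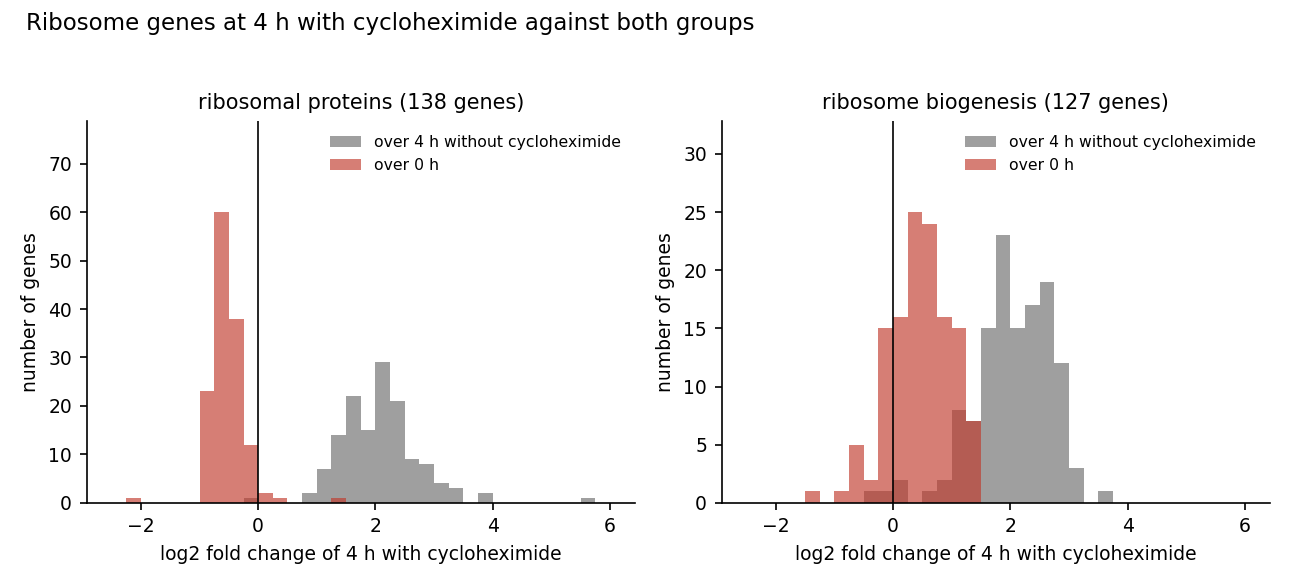
Number of genes (vertical axis) by log2 fold change of 4 h with cycloheximide (horizontal axis), for 138 ribosomal protein genes (left) and 127 ribosome biogenesis genes (right); red bars give the change over 0 h and grey bars the change over 4 h without cycloheximide. Red bars lie near 0, with medians of -0.57 and 0.48, and grey bars lie to their right, with medians of 2.05 and 2.08.

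Few genes of other parts of the translation machinery were called. Of 42 translation factor genes 2 rose and 1 fell. The gene with the most counts in the drug-treated cells was tef103, a copy of the gene for elongation factor EF-1 alpha. It had 11425, 11649 and 10246 CPM with the drug against 4516, 4838 and 4757 CPM at 0 h, a change of 1.24 ± 0.07 (edgeR adjusted p = 3.86e-13). Its copies tef101 and tef102 had 1824 and 1727 CPM with the drug against 2914 and 1664 CPM at 0 h on average, neither was called, and reads could be divided between the 3 near-identical copies. Of 17 genes of ribosome stalling and quality control only dom34 was called, which is also 1 of the 2 translation factor genes that rose. It encodes a factor that frees stalled ribosomes, and had 120.1, 118 and 112 CPM with the drug against 54.7, 54.8 and 56.0 CPM at 0 h, a change of 1.08 ± 0.05. Of 21 aminoacyl-tRNA ligase genes none rose and 1 fell, with a list median of -0.52. That gene, the tryptophan ligase wrs1, changed by -1.01 ± 0.04, just past the 2-fold limit. It was not called without the third library at 0 h or without the third drug-treated library, and 2 ligase genes were lower without the first library at 0 h or without the second drug-treated library. Of 63 amino acid biosynthesis genes 16 fell and 1 rose, with a median of -0.62. The largest fall of the list was in his3, of histidine synthesis, at -2.97 ± 0.38, with 3.37, 1.61 and 4.46 CPM with the drug against 27.4, 21.8 and 22.9 CPM at 0 h. The genes arg3 and leu1, of arginine and leucine synthesis, changed by -2.37 ± 0.06 and -2.08 ± 0.06. The methionine synthase gene met6 was the 1 member that rose, with 976, 984 and 909 CPM with the drug and 393, 408 and 424 CPM at 0 h.

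The genes of RNA polymerase III transcription, the system that makes tRNA and 5S rRNA, held 4 higher and 1 lower member among 23. The repressor gene maf1 was the highest of them. It had 96.02, 94.3 and 86.2 CPM in the drug-treated libraries against 22.8, 24.6 and 24.1 CPM at 0 h, a change of 1.95 ± 0.06 (edgeR adjusted p = 7.79e-18). No library of either group came near the other for maf1, whereas its level at 4 h without drug, 107, 99.97 and 101 CPM, differed from that with the drug by only -0.16 ± 0.05. The initiation factor genes brf1 and tbp1 rose by 1.72 ± 0.05 and 1.68 ± 0.04, while sfc6, a subunit of the factor TFIIIC, fell by 1.86 on the log2 scale. Of 15 RNA polymerase I genes 1 rose, the initiation factor rrn3, at 1.30 ± 0.04 with 354, 354 and 365 CPM with the drug, 49.4, 50.7 and 50.8 CPM at 4 h without drug and 144, 148 and 143 CPM at 0 h.

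Counts on tRNA genes were few but higher in each drug-treated library. Summed over the 164 nuclear tRNA genes of the table they came to 906, 925 and 789 at 4 h with cycloheximide, 187, 179 and 206 at 4 h without drug and 78, 53 and 101 at 0 h. The libraries have similar totals, and the sums of the 3 groups do not overlap. Mature tRNA has no poly(A) tail and is largely lost in a poly(A) library, so these counts do not measure tRNA levels. Only 38 of the tRNA genes passed the filter on low counts, and a gene that passed through the libraries where it is high had to differ, so their fitted changes are not summarised. With the drug the sums were 1778, 1499 and 1100 at 2 h and 286, 394 and 285 at 8 h. Of 40 genes for tRNA processing and modification 3 rose and 6 fell. Those that rose were ctu1, ctu2 and trz2, the first pair acting in wobble uridine thiolation and trz2 in trimming the 3' ends of mitochondrial tRNA. The change of ctu1 was at the 2-fold limit, at 1.00 ± 0.06, and ctu1 was no longer called without the first or without the third library at 0 h, which left 2 members that rose. The lowest was trm112, a partner of RNA and protein methyltransferases, at -1.97 ± 0.06.

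The phosphate acquisition genes did not respond as one group. Of 14 genes for phosphate acquisition and signalling 6 rose and 1 fell relative to 0 h. The acid phosphatase gene pho1 was not called. It had 1461, 1645 and 1630.5 CPM with the drug against 1536, 1514 and 1723 CPM at 0 h, a change of -0.01 ± 0.08 (edgeR adjusted p = 0.90) that became 0.05 under RLE scaling and 0.10 with library size alone. The drug-treated and 0 h libraries overlapped, while cells starved for 4 h without drug held 14891, 14534 and 14287 CPM. The glycerophosphodiester transporter gene tgp1 rose, with 92.6, 98.2 and 89.8 CPM against 16.4, 17.7 and 18.04 CPM at 0 h, a change of 2.43 ± 0.07. Its level stayed well below the 1013, 1039.9 and 996 CPM of cells starved without drug, from which it differed by -3.44 ± 0.06. The phosphate transporter gene pho84 rose by 1.07 ± 0.07, with 1954, 2031 and 2069 CPM with the drug, 3883, 3876 and 3887 CPM at 4 h without drug and 939, 917 and 1021 CPM at 0 h. The gene pho842, which encodes a related transporter, rose more and was the highest of the list.

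Values for pho842 were 1654, 1757 and 1651 CPM with the drug against 224, 236 and 223 CPM at 0 h, a change of 2.89 ± 0.06. It differed from 4 h without drug by 0.89 ± 0.05, below the 2-fold limit. The message for the activator Pho7 also rose, with 279, 289 and 259 CPM with the drug and 89.1, 91.4 and 83.5 CPM at 0 h, a change of 1.65 ± 0.04. The pqr1 gene, whose product restrains phosphate uptake, rose by 1.93 ± 0.05. The gene csk1, for a Cdk-activating kinase linked to repression of pho1, was the member that fell, at -1.22 ± 0.06.

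The 4 long noncoding RNAs that lie beside pho1, pho84 and tgp1 all rose relative to 0 h and all were higher than at 4 h without drug. Their summed level was 376 to 407 CPM with the drug, 29.4 to 30.0 CPM at 4 h without drug and 105 to 111 CPM at 0 h. The RNA prt2, upstream of pho84, had 155, 171 and 162 CPM with the drug, 8.78, 8.56 and 9.91 CPM at 4 h without drug and 26.5, 25.3 and 26.7 CPM at 0 h. Drug-treated libraries were the highest and undrugged starved libraries the lowest, and the change relative to 0 h was 2.63 ± 0.07 (edgeR adjusted p = 1.74e-19). SPNCRNA.1343, next to tgp1, changed by 1.52 ± 0.06 relative to 0 h and by 4.50 ± 0.08 relative to 4 h without drug. The RNA named nc-tgp1, also next to tgp1, had 80.1, 75.3 and 68.7 CPM with the drug against 29.6, 30.3 and 29.4 CPM at 0 h, a change of 1.33 ± 0.07. At the pho1 locus nc-pho1 had 11.7, 13.8 and 13.4 CPM with the drug against 3.97, 3.92 and 3.03 CPM at 0 h, a change of 1.84 ± 0.14, and 0 h and drug-treated libraries did not overlap. In the annotation of assembly ASM294v3 nc-pho1 overlaps pho1 and prt2 overlaps pho84, so reads of these pairs may not be fully separated. Counting by strand would not separate a pair that lies on the same strand, and no source used here says whether the authors counted by strand.

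**Figure D3:**
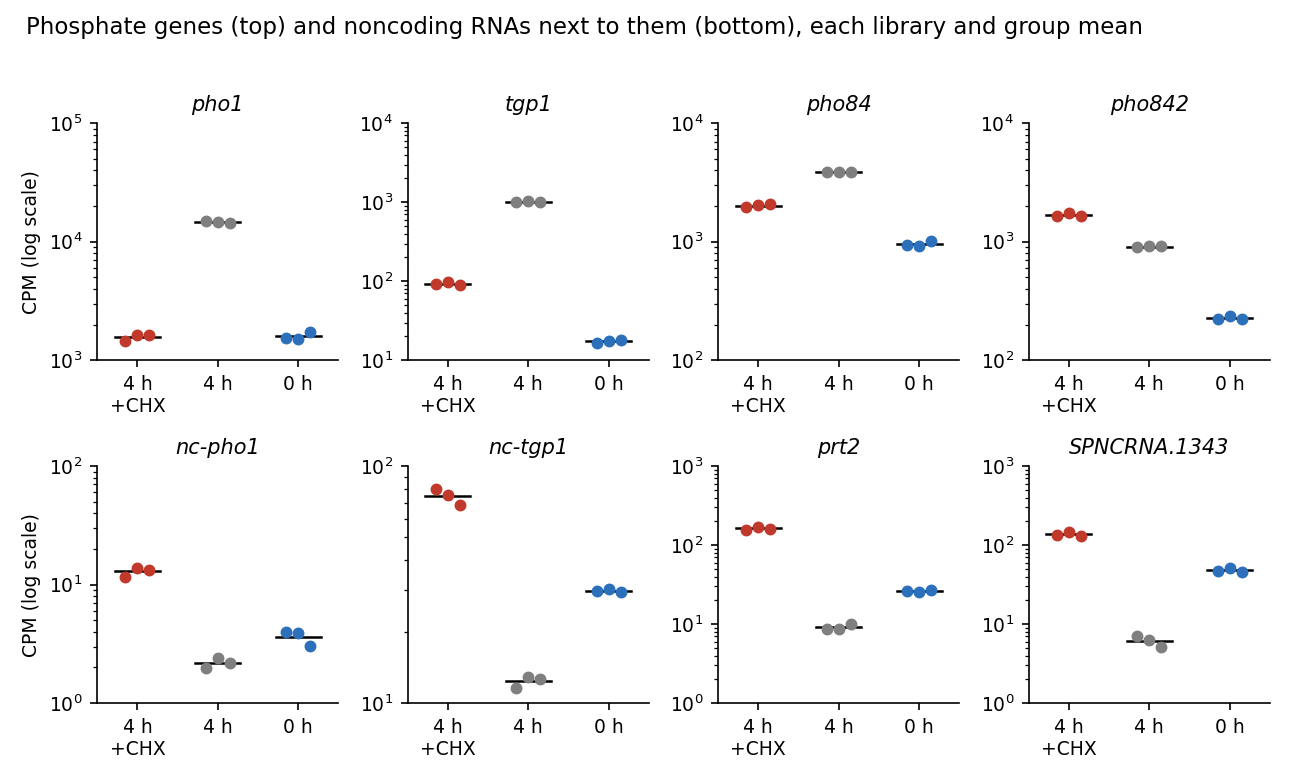
Level in CPM (log axis) of 4 phosphate genes (top) and 4 noncoding RNAs beside them (bottom) in each library (points), with the group mean (bar), at 4 h with cycloheximide (+CHX), at 4 h without drug and at 0 h. All 4 noncoding RNAs are highest with the drug and lowest at 4 h without it, pho1, tgp1 and pho84 are highest at 4 h without drug, and pho842 is highest with the drug.

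Genes for transport of other nutrients were often higher in drug-treated cells. Of 16 iron and heme acquisition genes 12 rose and 1 fell, with a list median of 2.27, and 8 of 22 cation transport genes rose and none fell. The zinc transporter gene zrt1 had 2298, 2244 and 2418 CPM with the drug against 152, 151 and 152 CPM at 0 h, a change of 3.94 ± 0.06. For the sodium-proton antiporter gene sod22 the change was 1.72 ± 0.04. The ferric reductase gene frp1 had 692, 587 and 531 CPM with the drug against 6.36, 7.78 and 7.91 CPM at 0 h, a change of 6.36 ± 0.14. For zrt1 and frp1 the lowest drug-treated library was far above the highest at 0 h. Of 23 genes for nitrogen-regulated transport and the isp genes, 11 rose and 2 fell. They include isp3, for a protein of the spore wall, at 3.91 ± 0.11, the amino acid permease isp5 at 2.81 ± 0.09 and the ammonium transporter amt3 at 1.97 ± 0.12.

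Of 28 heat shock chaperone genes 13 fell and 4 rose with the drug relative to 0 h, with a median of -0.61. The Hsp70 gene ssa2 had 317, 372 and 254 CPM with the drug against 7472, 7861 and 7250.5 CPM at 0 h, a change of -4.58 ± 0.12 (edgeR adjusted p = 4.22e-19). All 3 drug-treated libraries lay far below each library at 0 h. The Hsp90 gene, hsp90, changed by -2.97 ± 0.07, the mitochondrial co-chaperonin gene hsp10 by -2.69 ± 0.06 and the Hsp40 gene psi1 by -2.59 ± 0.12. Of 15 genes of the chaperonin CCT and prefoldin none rose and 3 fell. Unlike these, the gene of the heat shock factor hsf1 rose by 1.09 ± 0.04. The heat shock protein gene hsp9 rose as well, with 4583, 4932 and 3530.1 CPM with the drug against 315, 356 and 298 CPM at 0 h. The third drug-treated library was the lowest for ssa2 and for hsp9, but in neither gene did the groups overlap.

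Many genes of the core environmental stress response were higher than at 0 h, and more of them were lower than higher when set against undrugged starvation. Of 40 tested, 20 rose and 4 fell relative to 0 h, with a median of 1.00. Against 4 h without drug 8 were higher and 19 lower, with a median of -0.75. Of all tested genes 19.9% were higher and 20.9% lower there, so the number higher was near the share of all genes. The stress-induced gene ddr48 had 621, 896 and 479.5 CPM with the drug against 12.3, 14.3 and 10.9 CPM at 0 h, a change of 5.75 ± 0.25. The catalase gene ctt1 rose by 2.69 ± 0.11. In ddr48 the drug-treated libraries spread more than those at 0 h, but the groups did not overlap. Of 20 genes for the stress MAP kinase pathway and bZIP factors, 11 rose and none fell. Relative to 4 h without drug 6 were higher, against 19.9% of all tested genes. The bZIP factor gene atf1 had 719, 700.5 and 654 CPM with the drug against 169.5, 166 and 175 CPM at 0 h, a change of 2.02 ± 0.06. The related factor gene atf21 had 49.5, 65.1 and 40.6 CPM against 1.02, 0.628 and 0.749 CPM at 0 h, a change of 6.00 ± 0.23. The MAP kinase target srk1, a protein kinase gene, rose by 2.503 ± 0.08. Of the upstream kinases, wis1 changed by 0.83 ± 0.04 and sty1 by 0.44 ± 0.04, both below 2-fold.

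**Figure D4:**
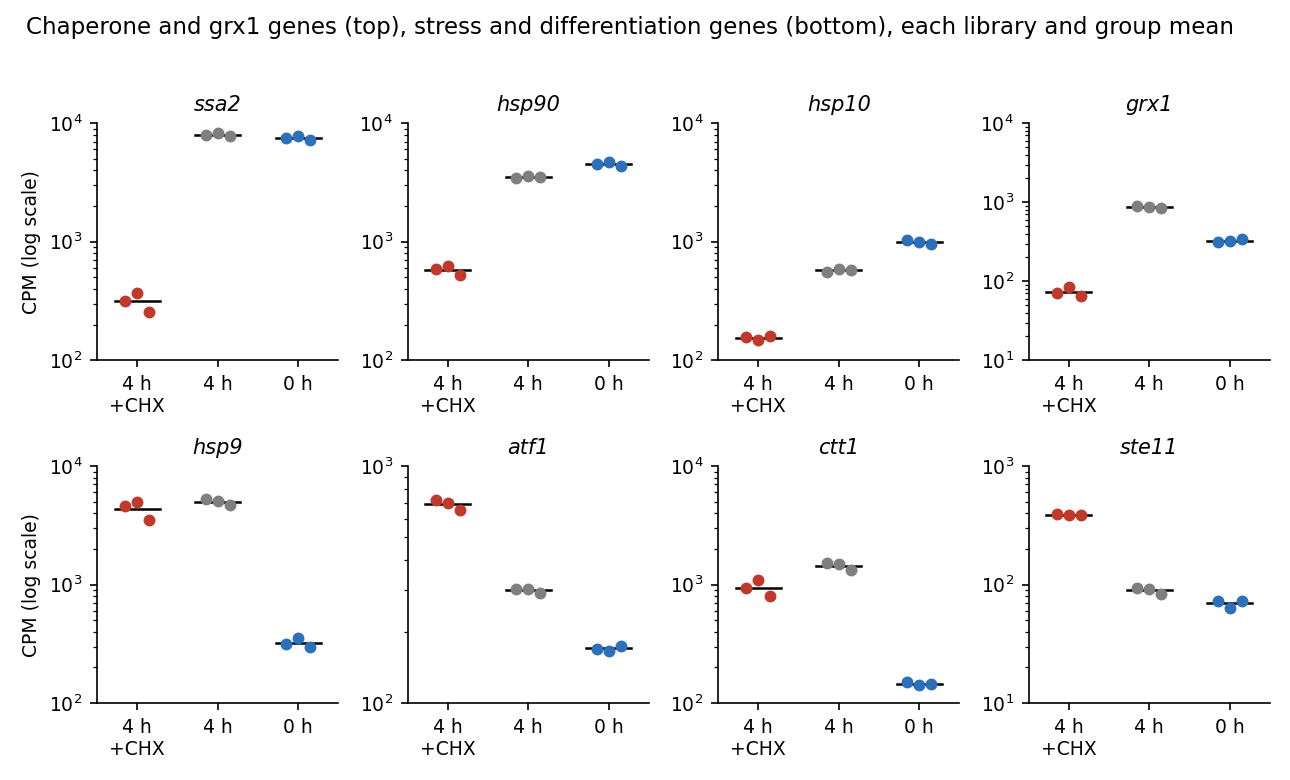
Level in CPM (log axis) of 3 chaperone genes and grx1 (top) and of hsp9, atf1, ctt1 and ste11 (bottom) in each library (points), with the group mean (bar), at 4 h with cycloheximide (+CHX), at 4 h without drug and at 0 h. The top genes are lowest with the drug, and the bottom genes are higher with the drug than at 0 h, with atf1 and ste11 also above 4 h without drug.

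Antioxidant and detoxification genes were divided, with 9 of 32 higher and 6 lower. Sulfiredoxin, srx1, rose by 3.01 ± 0.14, and the efflux transporter bfr1 by 2.66 ± 0.10. Glutaredoxin grx1 fell, with 71.5, 85.05 and 64.9 CPM with the drug against 310.1, 324 and 338 CPM at 0 h, a change of -2.13 ± 0.08, and it stood at 883, 878 and 833 CPM at 4 h without drug. The thioredoxin gene trx1 fell too, with a change of -1.85 ± 0.05. Of 32 autophagy genes 10 rose and none fell relative to 0 h, with a median of 0.50, and 1 fell without the second drug-treated library. Among them atg4, the protease that processes Atg8, rose by 1.80 ± 0.07, atg3 by 1.58 ± 0.06 and the kinase gene atg1 by 1.53 ± 0.05. Against 4 h without drug 1 autophagy gene was higher and 5 lower, both smaller shares than the 19.9% and 20.9% of all tested genes. Of 46 proteasome genes 2 rose and none fell, and of 28 ubiquitin genes 5 rose, with the polyubiquitin gene ubi4 at 1.64 ± 0.05. Of 30 TOR and nutrient kinase genes 5 rose and none fell. They include pka1, the catalytic subunit of protein kinase A, at 2.02 ± 0.06, its regulatory subunit cgs1 at 1.503 ± 0.12 and the S6 kinase homolog psk1 at 1.26 ± 0.04.

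Carbon metabolism split by direction. Of 20 glycolysis and fermentation genes 4 rose and 11 fell, with a median of -1.54, while of 25 genes for gluconeogenesis, glycerol and hexose transport 13 rose and 1 fell, with a median of 1.38. The glyceraldehyde-3-phosphate dehydrogenase gene tdh1 had 415, 447 and 360.1 CPM with the drug against 8656, 10146 and 8096 CPM at 0 h, a change of -4.46 ± 0.12. Its paralog gpd3 had 1606, 1988 and 1537 CPM against 274, 305 and 249.9 CPM at 0 h and rose by 2.63 ± 0.11. The pair thus moved in opposite directions, although similar copies can share reads. The aldehyde dehydrogenase gene atd1 was among the 5 genes with the most counts in drug-treated cells, with 6464, 6223 and 5633 CPM against 603, 660.0 and 578 CPM at 0 h. The hexose transporter gene ght3 rose by 4.54 ± 0.11 and the invertase gene inv1 by 3.15 ± 0.14. Few genes of mitochondrial function were called, as none of 18 TCA cycle genes and 1 of 31 respiratory chain and ATP synthase genes was called, and of 73 mitochondrial ribosome genes 2 rose and 6 fell. Smaller changes were mostly downward in the last 2 lists. With an adjusted p below 0.05 (edgeR), 24 of 26 respiratory chain genes and 54 of 64 mitochondrial ribosome genes changed downward, with list medians of -0.34 and -0.45. For the TCA cycle 10 of 17 such genes did so. Among biosynthetic lists, 3 of 27 sterol genes rose and 2 fell, 1 of 24 purine and pyrimidine genes rose and 4 fell (2 without the third library at 0 h), and none of 9 thiamine genes rose and 2 fell. Of 31 cell wall genes 4 rose and 2 fell, and none of the 3 genes that extend chronological lifespan (ecl) was called.

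Among cell cycle genes, 8 of 52 genes for mitosis, septation and cell separation rose and 12 fell, and 4 of 15 histone genes fell and 1 rose. The H3 gene hht1 changed by -1.16 ± 0.06 and the H4 gene hhf1 by -1.11 ± 0.06, while the H3 copy hht2 rose by 1.68 ± 0.06, and reads of these near-identical genes may be divided between copies. Of 33 MBF and G1/S genes 3 rose and 7 fell. The replication licensing gene cdt1 changed by -1.86 ± 0.09 and the kinase gene mik1 by -2.59 ± 0.09, and the Cdk inhibitor gene rum1 rose by 1.08 ± 0.06. Of 25 M-cell and mating genes 9 rose and 4 fell, and those that rose include the P-cell genes map1 and map2. The meiotic regulator mei2 had 959, 978 and 1026 CPM with the drug against 94.6, 86.4 and 89.7 CPM at 0 h, a change of 3.45 ± 0.08 (edgeR adjusted p = 2.09e-20). The factor gene ste11, which drives mating and meiosis, rose by 2.48 ± 0.08, ste7 by 2.55 ± 0.07 and the pheromone MAP kinase gene spk1 by 2.22 ± 0.10. The M-factor genes were divided. The most abundant, mfm2, fell, with a change of -1.34 ± 0.25. Of the others, both at low levels, mfm1 was called lower at -2.39 ± 0.44 and mfm3 higher at 1.62 ± 0.19.

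Noncoding RNAs were called in a larger share than coding genes in both directions, although the shares were not tested against each other. Of 667 antisense RNAs tested 183 rose and 132 fell, of 560 other noncoding RNAs 123 rose and 131 fell, and of 5054 coding genes 588 rose and 673 fell. The RNA antisense to SPCC663.10 had 382, 383 and 375 CPM with the drug against 9.47, 8.604 and 9.02 CPM at 0 h, a change of 5.39 ± 0.06. In the opposite direction pep3-antisense-1 changed by -4.38 ± 0.16, while the coding gene pep3, a vacuolar sorting factor, rose by 1.28 ± 0.04. The RNA cta3-antisense-1 likewise changed by -3.59 ± 0.10, while cta3, a cation ATPase gene, rose by 11.08 ± 0.12. Since it is unknown whether strand was used in counting, sense and antisense reads may not be fully separated. Few genes for decay and surveillance of RNA were called: of 35 nuclear surveillance and NMD genes 1 rose and 2 fell, and of 31 cytoplasmic mRNA decay genes 1 rose (2 without the first library at 0 h) and 2 fell. Of the 13 Tf2 retrotransposons counted, 5 were tested, with Tf2-11 higher at 1.28 ± 0.10, and as repeated elements they may share reads.

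Fewer genes were called between the times with the drug. Relative to 2 h with the drug 50 genes (0.782%) were higher and 331 (5.18%) lower at 4 h, together 5.96%, and relative to 4 h with the drug 192 genes (3%) were higher and 312 (4.88%) lower at 8 h, together 7.88%. The last split depends on scaling, since 266 were higher and 248 lower when libraries were scaled by size alone. Of the 331 genes lower at 4 h than at 2 h, 89 were antisense and 108 other noncoding RNAs, and of the 312 lower at 8 h than at 4 h, 131 were antisense and 41 other noncoding RNAs. Of the 44 small nuclear and nucleolar RNAs tested 16 were lower at 4 h than at 2 h and none higher. In these poly(A)-selected libraries the class held only 0.119, 0.123 and 0.124% of counts at 2 h and 0.0703, 0.0647 and 0.0699% at 4 h. Its counts therefore need not measure the levels of these RNAs. In the opposite direction the uracil-regulated gene urg1 had 63.8, 72.8 and 62.6 CPM at 2 h, 115, 154 and 124 CPM at 4 h and 6016, 5014 and 4732 CPM at 8 h with the drug. It climbed over the series and was higher at 8 h than at 4 h by 5.33 ± 0.12. The pheromone gene mfm2 rose between 2 h and 4 h by 2.53 ± 0.37 and between 4 h and 8 h by 3.05 ± 0.24, with 198, 206 and 172 CPM at 8 h. It thus exceeded at 8 h the 65.8, 58.5 and 51.8 CPM of replete cells. The permease gene isp5 was also higher at 8 h than at 4 h, by 3.62 ± 0.08, and so was shu1, a heme-binding surface protein gene, by 4.27 ± 0.11. Other genes peaked earlier, as isp3 had 502, 659 and 566 CPM at 2 h, 315, 328 and 291 CPM at 4 h and 57.1, 45.6 and 42.0 CPM at 8 h. For mei2 the level with the drug was 237, 194 and 201 CPM at 2 h and 959, 978 and 1026 CPM at 4 h, an increase of 2.23 ± 0.07, and it stood at 939, 984 and 957 CPM at 8 h.

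**Figure D5:**
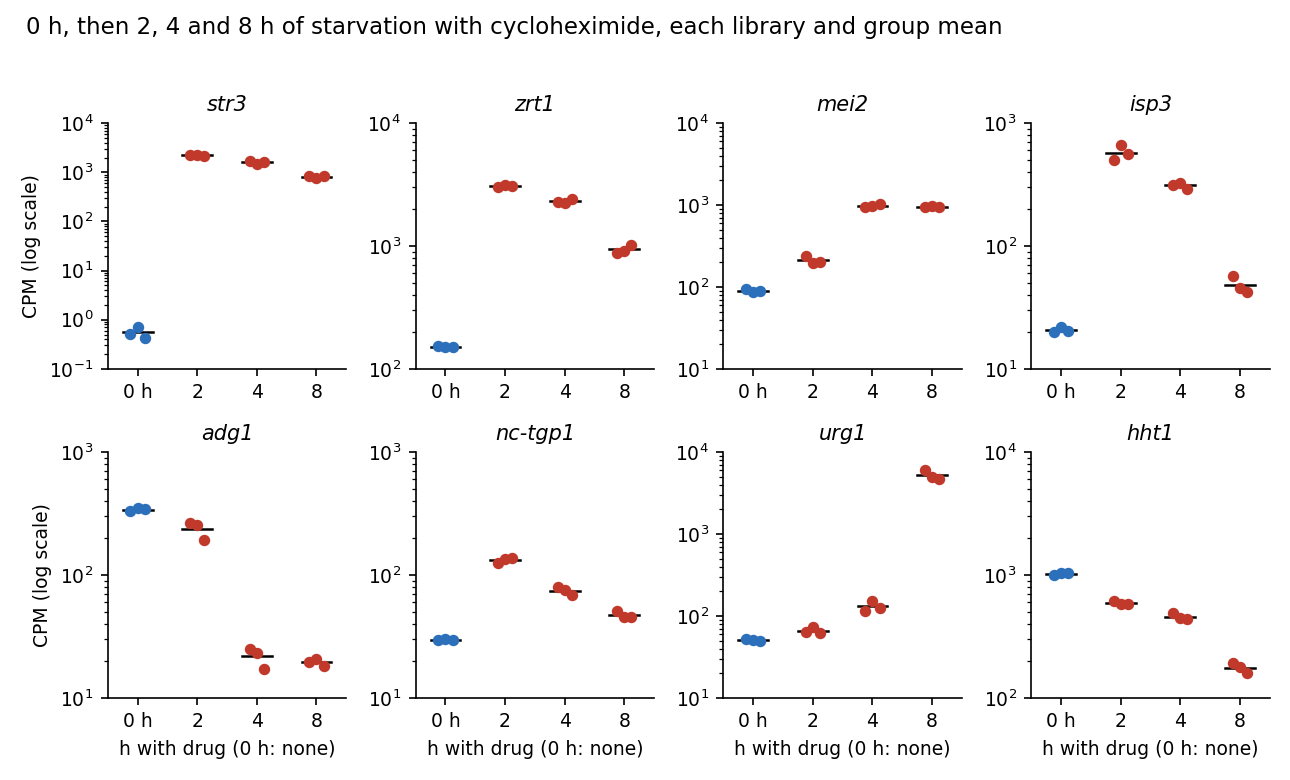
Level in CPM (log axis) of 8 genes in each library (points), with the group mean (bar), at 0 h without drug (blue) and at 2, 4 and 8 h of starvation with cycloheximide (red). The genes zrt1, isp3, str3 and nc-tgp1 are highest at 2 h, mei2 reaches its level by 4 h, urg1 is highest and hht1 lowest at 8 h, and adg1 is low at both 4 and 8 h, where its libraries overlap.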

How the data were processed

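RNA was poly(A)-selected and sequenced in pairs from stranded libraries, per the labels' protocols. The authors deposited raw counts per gene, and the submitters' processing notes name HISAT2 2.1.0, SAMtools, HTSeq 0.10.0, DESeq2 and build ASM294v2. No source used here states whether reads were counted by strand. The authors' deposited table also gives, per the file headers, mean signal (counts over size factors), log2 fold changes with an error and test score, and p-values, and served only for its number of calls.

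Here the counts of all 21 libraries, with 22079413 to 33563867 counts each, were filtered (filterByExpr), TMM-scaled and fitted by group with edgeR 4.0.16 in R 4.3.3 (quasi-likelihood test, Benjamini-Hochberg adjustment over 6392 genes, prior degrees of freedom 7.07). The replicate numbers were not taken to pair the libraries, since in no comparison did all 3 same-numbered pairs correlate above 0.1. Between times with the drug, same-numbered pairs nevertheless correlated mostly above the other pairs. DESeq2 1.42.0, other scalings and filters, the replicate block, fits of both groups alone and leaving out each library were alternatives. On simulated counts for 4 h with cycloheximide against 0 h, 50 of 50 genes changed 2.5-fold were called, and 1 of 6192 unchanged genes. The changed genes were drawn only from those with at least 50 expected counts. All other genes and groups kept the 0 h mean, so far fewer genes differed than in the data. These figures are therefore not error rates of the real comparison or of genes with few counts.

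Named genes were the 12 highest and 12 lowest coding genes reaching 100 CPM whose groups did not overlap, 5 in each direction of the other comparisons, up to 3 called members per direction and list reaching 20 CPM, the 5 genes with the highest mean CPM at 4 h with cycloheximide and fixed phosphate genes. Among those fixed genes prt was matched to nc-pho1. The copies tef101 and tef102, the genes wis1, sty1 and pep3, and the mating-type markers other than mfm2, were named after their values were seen. Members and lists were chosen with earlier results of these data known.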

Additional observations from a re-analysis of the deposited data

Results flagged for a closer look

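Of 178 genes named by the rule, 17 lay on opposite sides of their 0 h level at 4 h with and 4 h without the drug. In each, no library of either starved group overlapped those at 0 h, the mean without drug was at least 2-fold from the mean at 0 h, and edgeR called 4 h with cycloheximide against 0 h and against 4 h without. The naming rule chose mainly genes called in these comparisons, and the other tested genes were not examined. The number of such genes and their functions thus depend on the naming rule. Log2 differences below are 4 h with cycloheximide over 4 h without.

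Among them 6 genes were below 0 h with the drug and above it without. The uracil-regulated gene urg2 differed by -6.61 and tdh1, a glycolytic gene, by -5.58. The Hsp40 gene psi1 differed by -3.91, the pyridoxal reductase gene plr1 by -3.57, the glutaredoxin gene grx1 by -3.55 and the M-factor gene mfm2 by -3.27.

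The other 11 were above 0 h with the drug and below it without. The largest difference was in rpl1603, at 5.72, followed by the noncoding RNAs SPNCRNA.1343 at 4.50 and prt2 at 4.16. Ribosome biogenesis genes were rlp7 at 3.58, fyv7 at 3.00 and nog2 at 2.61. Genes for tRNA processing were trz2 at 3.15, ctu2 at 2.84 and ctu1 at 2.34. The change of ctu1 against 0 h was at the 2-fold limit and lost its call without the first or the third library at 0 h. The RNA polymerase I factor rrn3 differed by 2.83 and the noncoding RNA nc-tgp1 by 2.60. The causes were not tested.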

How the results depend on the processing

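Under RLE scaling, library size alone, both filters, DESeq2, a fit of both groups alone, the replicate block and each library left out, 101 of 104 recomputed counts of calls stayed within 1.5 times the count reported. The other 3 came with a filter at a mean of 100 counts, which tests fewer genes: 190 genes lower at 4 h than at 2 h with the drug, and 116 higher and 171 lower at 8 h than at 4 h. Scaling by library size alone moved the median of all genes by 0.11 for 4 h with cycloheximide against 0 h and gave 1076 higher and 791 lower. Leaving out 1 library gave 929 to 965 higher and 937 to 987 lower in that comparison. The replicate block gave 945 higher and 948 lower against 0 h and 1273 and 1343 against 4 h without drug, and changed no count by over 1.5 times. Deviations of same-numbered libraries correlated at -0.06 to 0.08 against 0 h, -0.06 to 0.10 against 4 h without drug, 0.08 to 0.20 for 4 h against 2 h with the drug and 0.05 to 0.20 for 8 h against 4 h, so that in no comparison were all 3 above 0.1. Pairs with different numbers correlated at -0.19 to 0.11 for 4 h against 2 h with the drug. For 8 h against 4 h such pairs correlated at -0.16 to 0.04, below all 3 same-numbered pairs. Whether same-numbered libraries shared a batch was not tested. Counts of called members per list stayed within 1.5 times in 1103 cases and moved further in 41. Of 178 named genes 167 kept direction and call, and the other 11 lay near the 2-fold limit or near 0. The value of pho1 became 0.0509 (RLE), 0.0985 (library size), 0.0321 (both groups alone) and 0.0510 (DESeq2), and ranged between -0.0456 and 0.0496 with 1 library left out. The value of sks2 became 0.0184 with library size alone. The cause was not tested.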
